A study of Mus musculus with 31 samples.

Results

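Slc2a1, Slc2a3 and Slc2a4, the genes of the glucose transporters GLUT1, GLUT3 and GLUT4, and Hs3st5, the gene of a heparan sulfate 3-O-sulfotransferase, were followed in whole masseter muscle (MM) of mice after intramuscular collagenase type 2 (Col) or complete Freund's adjuvant (CFA). These are 4 of the 22609 genes in the count tables. Slc2a3 and Hs3st5 were chosen because both were lower than vehicle in each of the 2 groups given 0.2U Col, so their difference from vehicle at that dose is given here as a description with no test. Slc2a1 and Slc2a4 were taken as the other glucose transporters for comparison.

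The 31 libraries came from wild-type adult male C57BL/6J mice, aged 2 to 4 months, each injected into the MM, and all groups share this strain, sex and route. In the CFA experiment 3 mice received vehicle (PBS), 3 were collected 1d post-CFA and 3 were collected 5d post-CFA. In the Col experiment 3 mice received vehicle, 4 received 0.2U Col and are titled 1C, 4 received 0.2U Col and are titled RPC, and 10U Col was given to 4 mice of an early group, 3 mice of a 6d group and 4 mice of a late group. Titles put the early 10U group at day 2 and the late group at day 12, where the published schedule has days 1 and 14, so these groups are called early and late. The titles of 1C, RPC and both vehicle groups hold no day. The published schedule has 0.2U groups at 1d and 5d, but the titles do not say which of 1C and RPC is which. The vehicle mice titled Contr, as distinct from those titled CFA_control, were taken as the vehicle of the Col experiment. CFA is an emulsion that raises inflammation, and Col digests the collagen of the extracellular matrix, so that it models tissue damage. The RNA is that of all cells of the dissected muscle, so fewer cells of a type and less RNA per cell cannot be told apart.

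Glucose enters cells down its gradient through transporters of the Slc2a family. GLUT4 is the insulin- and contraction-regulated transporter of muscle fibres and fat cells, held in vesicles that move to the surface when insulin signals. GLUT1 is a widely expressed transporter of basal uptake, whose gene is a known target of hypoxia-inducible factor, and GLUT3 has a high affinity for glucose and is best known from neurons and white blood cells. Heparan sulfate 3-O-sulfotransferases add a rare sulfate to the glucosamine of heparan sulfate, a chain carried by proteoglycans of the cell surface and matrix, and the Hs3st5 enzyme can make sites that bind antithrombin.

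Between 14843778 and 29076671 reads per library were counted on genes, with a median of 20834472. Reads set aside as ambiguous between genes were 0.675% to 0.875% of counted plus ambiguous reads in the 10U libraries. They were 0.166% to 0.236% in the vehicle mice of the Col experiment and 0.147% to 0.317% in the 0.2U groups, both below every 10U library. The reason is not given, and its part in the comparisons of 10U with vehicle or with CFA was not tested. Levels below are CPM, counts divided by the library total after scaling by the trimmed mean of M values over all 31 libraries, and levels compared between genes are CPM per kilobase of exon (RPKM). All 12 markers of muscle fibres on the list used here were detected in every group. Markers of salivary gland, which lies next to the MM, summed to between 0.856 and 177700 CPM over the libraries and to 25.5, 111478 and 26055 CPM in the 3 vehicle mice of the Col experiment. Mouse 4 of the early 10U group stood apart from the rest of its group, with a correlation of log2 CPM of 0.918 with its group and 0.946 with vehicle, whereas its 3 companions reached 0.944 to 0.980 with their group and 0.891 to 0.918 with vehicle. Mouse 4 of the late 10U group had 0.952 with its group against 0.972 to 0.989 for the others, and mouse 2 at 1d post-CFA was closer to vehicle (0.988) than to its group (0.965). The same held for mouse 2 of 1C (0.967 with vehicle and 0.952 with its group), mouse 1 of RPC (0.976 and 0.968) and mouse 4 of RPC (0.977 and 0.975). Vehicle mouse 3 of the CFA experiment had 0.927 with its group, against 0.973 and 0.979 for the other vehicle mice. Its fibre markers summed to 119523 CPM against 247946 and 250453, and its salivary gland markers to 9299 CPM against 23.5 and 45.2. Pairwise results of the 4 genes that rest on mouse 4 of the early or late 10U group are therefore given with and without it, a choice made after the values were seen.

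In the annotation of the mm9 build that the files use, Slc2a1 lies on the plus strand of chromosome 4 (chr4:118781316-118809935) and 1 of its exons overlaps the opposite-strand gene Gm12868. Slc2a3 lies on the minus strand of chromosome 6 (chr6:122677827-122751658), and its 7245 bp of exon are the longest of the 4 genes. Slc2a4 is compact, on the minus strand of chromosome 11 (chr11:69756045-69761690), with Ybx2 and Gm12310 on the opposite strand within 5000 bp. Hs3st5 spans chr10:36226620-36554203 on the plus strand, and the small RNA gene SNORA48 lies on the opposite strand within it. None of the 50-base windows along the coding transcripts of these genes (0%) occurred in a transcript of another gene, so reads were not split with close copies at that length. The libraries were stranded, but how strand was used in counting is not given in the sources used here, so reads of Gm12868 could have been counted with Slc2a1.

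The promoters of Slc2a1 and Hs3st5 are shown because these are the members with an entry in the RefSeq promoter table (2 of 4). Each line gives the 250 bases before the start of the gene on build GRCm38.p6, at chr4:119108495-119108744 and chr10:36506557-36506806, both on the plus strand, with the letters ACGTG, the core of the hypoxia response element, in capitals where found on either strand.
Slc2a1: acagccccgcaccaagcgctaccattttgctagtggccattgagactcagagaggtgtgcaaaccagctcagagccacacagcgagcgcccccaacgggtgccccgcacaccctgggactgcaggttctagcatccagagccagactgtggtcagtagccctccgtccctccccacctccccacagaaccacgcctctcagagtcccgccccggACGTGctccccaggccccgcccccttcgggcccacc
Hs3st5: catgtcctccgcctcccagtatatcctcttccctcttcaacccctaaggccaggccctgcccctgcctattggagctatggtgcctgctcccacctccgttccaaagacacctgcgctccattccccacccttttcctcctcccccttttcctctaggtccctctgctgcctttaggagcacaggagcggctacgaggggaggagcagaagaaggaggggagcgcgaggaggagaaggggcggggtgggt
The Slc2a1 window held ACGTG once, from base -36 to -32 relative to the start, and the Hs3st5 window held neither ACGTG nor its reverse complement CACGT. These letters occur in 16.6% of 32851 promoter windows of this length. The GC box GGGCGG, or CCGCCC on the other strand, was found at -45 to -40 and -20 to -15 in Slc2a1 and at -13 to -8 in Hs3st5, and 32.7% of promoters hold it. A match of letters is a description and not a binding site.

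Slc2a4 made up nearly all of the glucose transporter transcript of vehicle-treated MM. Its level was 343 RPKM in the Col experiment's vehicle mice, against 8.20 for Slc2a1 and 4.23 for Slc2a3. As a share of the summed RPKM of the 12 Slc2a genes in the tables, Slc2a4 held 92.2% ± 1.30, Slc2a1 2.27% ± 0.575 and Slc2a3 1.20% ± 0.349 (SD, n = 3). In the CFA experiment's vehicle mice the Slc2a4 share was 94.1% ± 1.42 (SD, n = 3). The remaining 9 genes were minor: Slc2a8, an intracellular transporter, and Slc2a12 reached 15.9 and 20.8 CPM, Slc2a7 had no count in any library, and Slc2a2, the liver and islet transporter, had at most 3 counts in the vehicle and 6d groups. Hs3st5 was at 2.49 RPKM in the same vehicle mice, the highest of the 6 heparan sulfate 3-O-sulfotransferases in the tables, ahead of Hs3st1 at 1.62, Hs3st3b1 at 0.812 and Hs3st3a1 at 0.313.

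**Figure D1:**
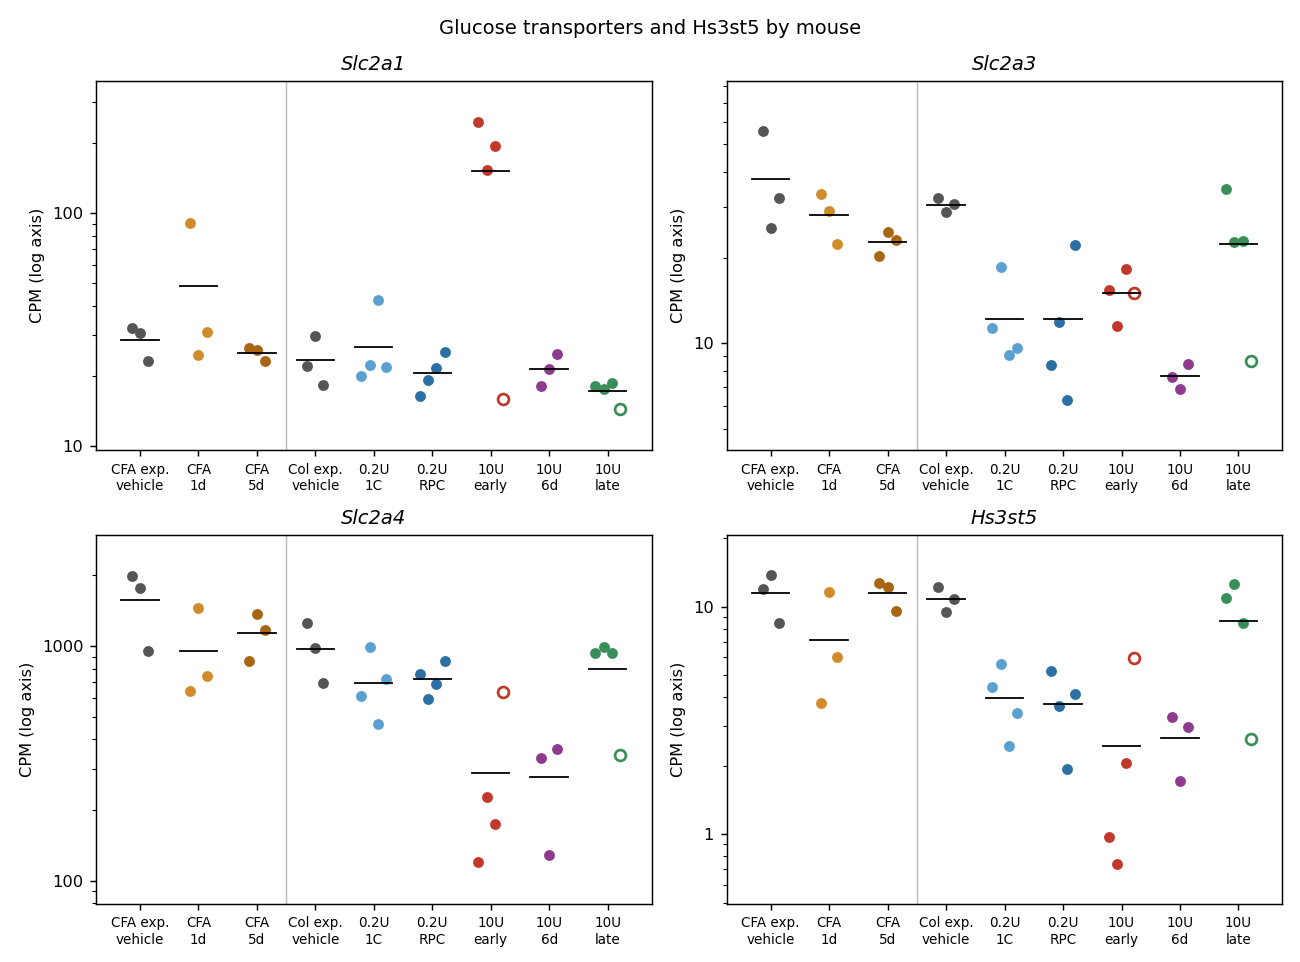
CPM of Slc2a1, Slc2a3, Slc2a4 and Hs3st5 in each of the 31 mice by group, on log axes, with a line at each group mean; open points are mouse 4 of the early and of the late 10U groups. Slc2a1 stood at 153 to 245 CPM in 3 of 4 early 10U mice and at 15.9 CPM in the fourth, and Slc2a3 and Hs3st5 were below every vehicle mouse in both 0.2U groups.

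After 0.2U Col, Slc2a3 and Hs3st5 were lower than vehicle in all 8 mice, and Slc2a1 and Slc2a4 were not separated from vehicle. These are the values that chose the members. Slc2a3 was at 32.3, 28.9 and 30.8 CPM in the vehicle mice. It was at 11.3, 18.5, 9.08 and 9.64 CPM in 1C and at 8.37, 11.8, 6.32 and 22.1 CPM in RPC. All 8 treated mice lay below the lowest vehicle mouse, and mouse 2 of 1C and mouse 4 of RPC came nearest to it. The fitted log2 fold change was -1.33 ± 0.262 (SE), or 2.51-fold lower, in 1C, and -1.32 ± 0.389, or 2.49-fold lower, in RPC.

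Hs3st5 was at 12.2, 9.44 and 10.8 CPM in the vehicle mice. It was at 4.45, 5.58, 2.44 and 3.40 CPM in 1C and at 5.22, 3.67, 1.94 and 4.15 CPM in RPC, again with no overlap. The log2 fold change was -1.43 ± 0.301 (SE) in 1C and -1.51 ± 0.327 in RPC, which are 2.70-fold and 2.84-fold lower. Ranked by log2 fold change among all genes tested, Slc2a3 and Hs3st5 stood at percentiles 0.566 and 0.483 in 1C. Of all genes tested, 6.13% had all 1C mice below all vehicle mice, and 7.21% had all RPC mice below them, and nothing is read from the members' count since the same values chose them. No gene passed an adjusted p under 0.05 in edgeR's quasi-likelihood test in either contrast (0% of 14493 and 14269 genes), although 1819 and 1923 genes had an unadjusted p under 0.05 and DESeq2 called 519 and 443. For 1C, 202 genes passed without 1C mouse 2, 287 with the vehicle mice of both experiments pooled and 137 in 1 fit over all libraries.

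Slc2a1 and Slc2a4 overlapped vehicle in both 0.2U groups. Slc2a1 was at 22.05, 29.7 and 18.4 CPM in vehicle, at 19.97, 22.4, 42.4 and 21.9 in 1C and at 16.4, 19.2, 21.7 and 25.5 in RPC. Mouse 3 of 1C had the highest value of these 11 mice. Slc2a4 was at 1250, 975 and 692 CPM in vehicle, at 611, 991, 464 and 725 in 1C and at 756, 594, 685 and 860 in RPC. The log2 fold changes were 0.20 ± 0.306 (SE) and -0.15 ± 0.204 for Slc2a1 and -0.47 ± 0.312 and -0.40 ± 0.237 for Slc2a4, in 1C and RPC. These 4 values are also descriptions, as they come from the contrasts that the choice of genes used.

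The 0.2U groups also differed from vehicle in the transcript level of fibre markers. The 12 fibre markers summed to 137492 to 204896 CPM in vehicle, 101813 to 135744 in 1C and 100087 to 130505 in RPC. Adipocyte markers ranged from 393 to 673 CPM in vehicle, from 528 to 1973 in 1C and from 791 to 1190 in RPC, and salivary gland markers from 25.5 to 111478, from 52.9 to 26246 and from 17049 to 177700 CPM. Keratinocyte markers were at 60.2 to 195 CPM in vehicle, 307 to 645 in 1C, without overlap, and 130 to 648 in RPC. Per 100000 summed CPM of the fibre markers, Hs3st5 was at 4.61 to 7.85 CPM in vehicle, 2.22 to 4.37 in 1C and 1.94 to 3.997 in RPC, still without overlap. On the same scale Slc2a3 was at 14.1 to 22.4 in vehicle, 7.32 to 13.6 in 1C and 6.32 to 18.4 in RPC, so that RPC then overlapped vehicle. Slc2a4 on this scale was at 476 to 645 in vehicle, 423 to 730 in 1C and 577 to 717 in RPC, which all overlapped, and Slc2a1, at 11.4 to 14.5 in vehicle, was at 16.5 to 38.6 in 1C, above every vehicle mouse, and at 12.6 to 21.7 in RPC. The part of the changed tissue content in the Slc2a3 and Hs3st5 difference was not tested beyond this.

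No difference between the 2 groups given 0.2U was called in any of the 4 genes. The log2 fold change of 1C against RPC was 0.01 for Slc2a3 (95% interval -0.78 to 0.81) and 0.10 for Hs3st5 (-0.61 to 0.81). It was 0.37 for Slc2a1 (-0.12 to 0.85) and -0.04 for Slc2a4 (-0.54 to 0.47). The adjusted p of the 4 genes was 0.662 to 0.994, all 4 overlapped, and 4.45% of genes did not. edgeR called 0% of 14570 genes here, with 1458 at an unadjusted p under 0.05, DESeq2 called 317, and 147 passed without 1C mouse 2.

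Early after 10U Col, Slc2a1 was several times higher in 3 of 4 mice, and Slc2a4 and Hs3st5 were at a small part of their vehicle level in the same mice. Slc2a3 was lower in all 4. Mouse 4 of the group stood apart in Slc2a1, Slc2a4 and Hs3st5, though not past the limit of the outlier search given at the end. The tests of these 3 genes turned on that mouse. The comparison asks how the muscle changes at the onset of damage, and its 3 vehicle mice are those of the 0.2U contrasts, so that Slc2a3 and Hs3st5 were partly chosen on them.

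Slc2a1 was at 245, 153, 194 and 15.9 CPM in the early mice against 18.4 to 29.7 CPM in vehicle. The first 3 mice lay above every other library of the series, and mouse 4 lay below the vehicle range. Over all 4 mice the log2 fold change was 2.66 ± 0.771 (SE) and was not called (edgeR's quasi-likelihood test, adjusted p = 0.0722). Without mouse 4, at 197 ± 46.5 CPM (SD, n = 3), Slc2a1 was 8.22-fold higher than vehicle (log2 fold change 3.04 ± 0.245, adjusted p = 0.000612). DESeq2 called Slc2a1, Slc2a4 and Hs3st5 over all 4 mice too, where it called 3326 of 14373 genes.

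Slc2a4 was at 120, 227, 175 and 633 CPM in the early mice. Every one lay under the lowest vehicle mouse of 692 CPM, mouse 4 only narrowly. The log2 fold change was -1.78 ± 0.569 (SE, adjusted p = 0.0840) over all mice and -2.53 ± 0.324, a 5.77-fold fall, without mouse 4 (adjusted p = 0.00210).

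Hs3st5 was at 0.970, 0.741, 2.05 and 5.96 CPM in the early mice. These values rest on 18, 13, 46 and 152 reads, against 142 to 279 reads in vehicle, and all 4 mice lay below vehicle. The log2 fold change was -2.17 ± 0.676 (SE, adjusted p = 0.0802) over all mice and -3.13 ± 0.432, an 8.77-fold fall, without mouse 4 (adjusted p = 0.00257).

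Slc2a3 was at 15.4, 11.46, 18.2 and 15.02 CPM early after 10U Col, and here mouse 4 sat in the middle of its group. Slc2a3 fell by 1.07 ± 0.198 on the log2 scale (SE, adjusted p = 0.0483), with no overlap with vehicle, and by 1.07 ± 0.209 without mouse 4 (2.11-fold lower, adjusted p = 0.00836). The call was lost when any 1 of the 6 other mice was left out (adjusted p 0.0506 to 0.193). It was the only 1 of the 4 genes called over all mice, where 2.22% of all genes were called and 24.2% did not overlap. Without mouse 4 all 4 genes were called, and so were 36.3% of all genes.

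**Figure D2:**
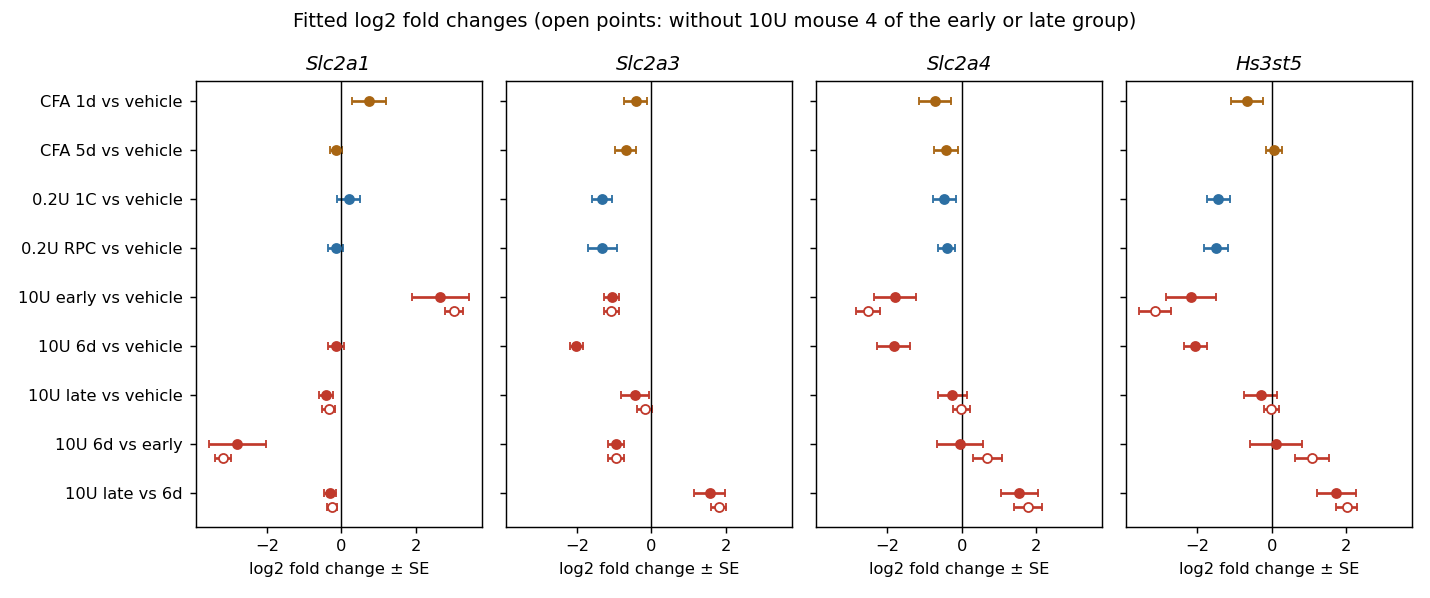
Fitted log2 fold change ± SE of the 4 genes in 9 comparisons (edgeR), with open points for the fits without mouse 4 of the early or the late 10U group. Without mouse 4 the early change of Slc2a1 moved from 2.66 to 3.04 and that of Hs3st5 from -2.17 to -3.13, while that of Slc2a3 stayed at -1.07; the 0.2U points are descriptions with no test.

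The make-up of the transporters changed with this. Slc2a1 held 62.9%, 37.2%, 49.0% and 2.22% of the summed Slc2a RPKM in the 4 early mice, against 1.64% to 2.76% in vehicle. Slc2a4 held 30.9%, 55.7%, 44.5% and 89.0%, against 91.2% to 93.7%. In mice 1 and 3 Slc2a1 was therefore the most abundant glucose transporter transcript, and in mouse 2 it came next to Slc2a4. The summed level was lower as well, at 137, 144, 139 and 251 RPKM, against 266 to 471 in vehicle. Slc2a12 and Slc2a8 also fell without mouse 4, by 2.41 and 1.85 on the log2 scale (adjusted p = 0.00109 and 0.00413), so that 1 of 10 tested family members rose and 4 fell, beside the 36.3% of all genes called. Over all 4 mice 1 of 10 fell, which was Slc2a3.

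**Figure D3:**
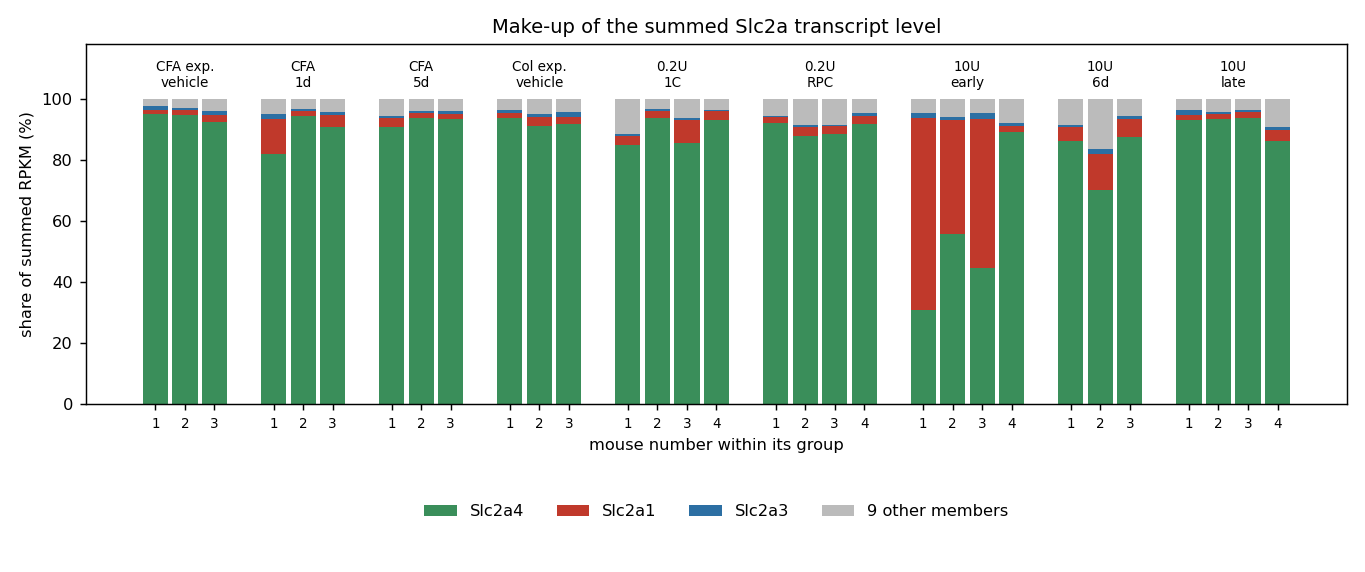
Share of the summed Slc2a RPKM (%) held by Slc2a4, Slc2a1, Slc2a3 and the 9 other Slc2a genes in each of the 31 mice, as stacked bars that each add to 100%. Slc2a4 held 91.2% to 93.7% in the vehicle mice of the Col experiment and 30.9% to 55.7% in early 10U mice 1 to 3, where Slc2a1 held 37.2% to 62.9%.

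Genes that hypoxia-inducible factor is known to raise were set beside Slc2a1, from a list of 12. Over all 4 early mice none of the 12 was called, and the median log2 fold change was 0.88, beside 0.02 for all genes tested. Without mouse 4, 7 rose and 2 fell, with a median of 1.05, where 36.3% of all genes were called. Those with the largest rises were Car9, a carbonic anhydrase (log2 fold change 4.04 ± 0.448), Ero1l, an oxidase of the endoplasmic reticulum (3.72 ± 0.284), and Ankrd37 (2.65 ± 0.321). The genes that fell were Pfkfb3, a regulator of glycolysis, by 1.31 ± 0.369, and Ldha, lactate dehydrogenase A, by 1.09 ± 0.230. Ldha stood at 956 to 1619 CPM in vehicle.

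Car9 was at 12.8, 7.98 and 6.72 CPM in early mice 1 to 3 and at 0.510 CPM in mouse 4, against 0.313 to 0.798 CPM in vehicle. Ero1l was at 140, 87.4, 124 and 13.2 CPM, against 6.62 to 11.1 CPM. Mice 1 to 3 all lay above every vehicle mouse for 7 of the 12 genes, as they did for 29.8% of all genes tested, and mouse 4 lay within the vehicle range for 5 of 12. The median log2 difference from the vehicle mean over the list was 1.07 for mice 1 to 3 and 0.01 for mouse 4.

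Of the hexose kinases, which trap glucose in the cell, Hk2, the insulin-responsive form of muscle, was at 1322, 833 and 905 CPM in mice 1 to 3 and 337 in mouse 4, against 459 to 579 CPM in vehicle. Without mouse 4, Hk2 rose by 0.95 ± 0.243 on the log2 scale and Hk1, the form of most tissues, by 1.03 ± 0.211, while Khk, fructokinase, fell by 1.64 ± 0.259 (adjusted p = 0.0216, 0.0101 and 0.00410). Over all 4 mice 0 of 5 tested were called.

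**Figure D4:**
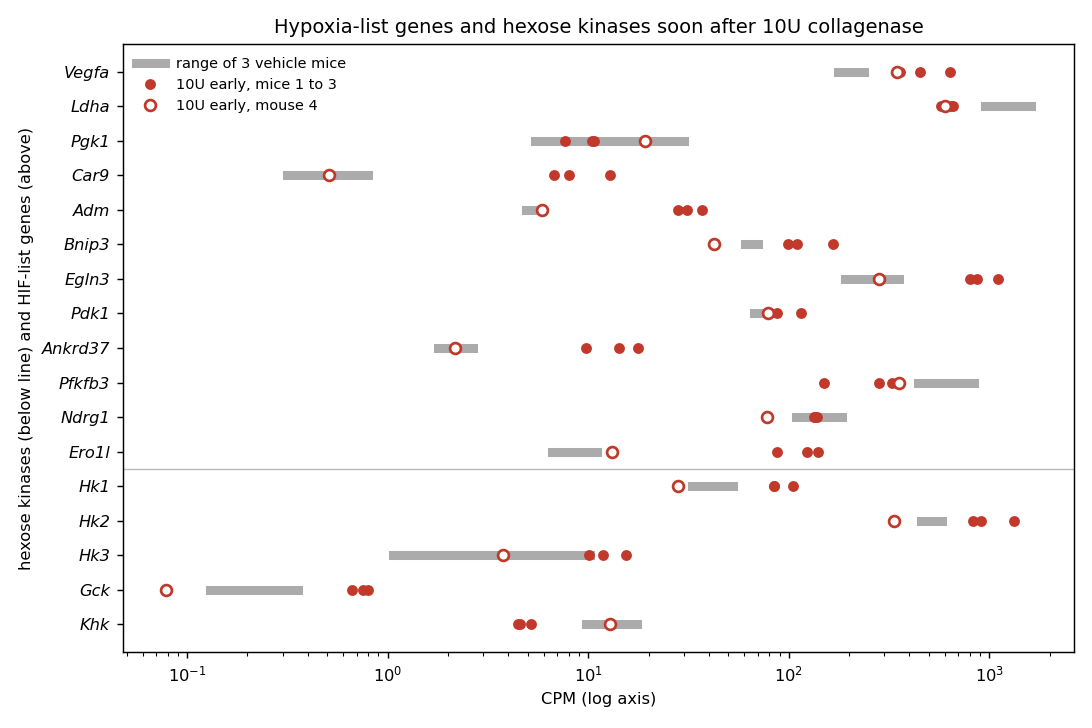
CPM on a log axis of the 12 genes of the hypoxia list and 5 hexose kinases in the 4 early 10U mice, with grey bars for the range of the 3 vehicle mice of the Col experiment. Mice 1 to 3 (filled) lay above the vehicle range for 7 of the 12 list genes, and mouse 4 (open) lay within it for 5.

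Transcripts of fibre markers were lower early after 10U Col. The 12 fibre markers summed to 38513, 49153 and 47759 CPM in mice 1 to 3 and 85337 CPM in mouse 4, against 137492 to 204896 CPM in vehicle, and 11 of 12 fell without mouse 4 (median -1.95 on the log2 scale). Macrophage markers summed to 553 to 1389 CPM against 133 to 444 in vehicle, and neuron markers to 43.6 to 117 CPM against 10.2 to 15.3, both without overlap. Neuron markers were also at 32.3 to 93.3 CPM in the late 10U group and at 34.0 to 80.4 CPM in the CFA vehicle mice. The neuron list had a median log2 fold change of 2.68, with 1 of 7 called. Per 100000 fibre CPM, Slc2a4 was at 311 to 742 in the early mice and 476 to 645 in vehicle, and Hs3st5 at 1.51 to 6.99 and 4.61 to 7.85, which overlapped, whereas Slc2a1 was at 18.7 to 637 against 11.4 to 14.5. Slc2a3, at 17.6 to 39.9 against 14.1 to 22.4 on this scale, overlapped vehicle. The part of fibre content and of the other cell types in these results was not tested.

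At 6d post-Col (10U), Slc2a3, Slc2a4 and Hs3st5 were 3.56-fold to 4.16-fold lower than in vehicle, and Slc2a1 overlapped vehicle. This group had the lowest mean Slc2a3 of the 9 groups. The vehicle mice are again those on which Slc2a3 and Hs3st5 were chosen as low, so that their tests here are not independent of that choice. Of the 4 genes, 3 fell, in a comparison where 27.3% of all genes were called and 47.2% did not overlap. Slc2a3 was at 7.60, 6.88 and 8.46 CPM, below every vehicle mouse and nearly uniform between mice. It fell by 2.03 ± 0.176 on the log2 scale (SE, 4.07-fold lower, adjusted p = 0.00146). Hs3st5 was at 3.27, 1.71 and 2.94 CPM, also below every vehicle mouse. It fell by 2.05 ± 0.315 on the log2 scale (4.16-fold lower, adjusted p = 0.00643), and this call and that of Slc2a3 held without any 1 mouse.

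Slc2a4 was at 334, 128 and 365 CPM at 6d, under the lowest vehicle mouse. It fell by 1.83 ± 0.440 on the log2 scale (SE, 3.56-fold lower, adjusted p = 0.0234), a call lost without vehicle mouse 1 (0.0608) or 6d mouse 1 (0.0714). Slc2a1 was at 18.2, 21.4 and 24.9 CPM, overlapping vehicle, with a log2 fold change of -0.14 ± 0.213 (adjusted p = 0.650). Since Slc2a4 was lower and Slc2a1 was not, Slc2a4 held 81.3% ± 9.59 of the summed Slc2a RPKM and Slc2a1 7.42% ± 3.73 (SD, n = 3), over a summed level of 116 RPKM.

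Slc2a12 fell with them, by 1.56 ± 0.295 on the log2 scale (SE, adjusted p = 0.0123), so that 3 of the 10 tested glucose transporters fell and none rose, a share near the 27.3% of all genes called. In the list of 20 genes of GLUT4 trafficking and insulin signalling, Tbc1d4, the Akt substrate that holds GLUT4 vesicles back, fell by 1.74 ± 0.320 and Irs2, an insulin receptor substrate, by 1.15 ± 0.276, while Rab13, a vesicle GTPase, rose by 1.03 ± 0.163 (adjusted p = 0.0113, 0.0232 and 0.00722). The other 17 were not called, so that fewer of the list than of all genes were called, and the median of the list was -0.16 against 0.01 over all genes. Hk2 fell by 1.31 ± 0.288 (adjusted p = 0.0182), the only 1 of 4 tested hexose kinases called. Of the hypoxia list 2 of 12 fell, Ndrg1 by 1.40 ± 0.243 and Pdk1, a pyruvate dehydrogenase kinase, by 0.60 ± 0.164, also a smaller share than among all genes.

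At 6d the fibre markers summed to 43735 to 80710 CPM and 5 of 12 fell (median log2 fold change -1.43). Markers of satellite cells and regenerating fibres summed to 2640 to 4565 CPM, against 325 to 936 in vehicle, and macrophage markers to 1302 to 2590 against 133 to 444. Neuron markers were at 34.0 to 80.4 CPM in the CFA vehicle mice. At 6d they were above all vehicle mice of the Col experiment too (27.8 to 35.8 against 10.2 to 15.3 CPM). Schwann cell and nerve markers (122 to 334 against 606 to 1932 CPM, 6 of 8 called lower), keratinocyte markers (18.9 to 24.0 against 60.2 to 195 CPM, 6 of 6 called lower), endothelial markers (611 to 714 against 794 to 1025 CPM), erythroid markers (1.07 to 1.51 against 6.05 to 59.3 CPM) and salivary gland markers (at most 2.57 CPM) were below them. Adipocyte markers overlapped vehicle (248 to 406 against 393 to 673 CPM), with 3 of 7 called lower. Per 100000 fibre CPM, Hs3st5 was at 3.65 to 4.45 and Slc2a4 at 293 to 455, both still below all vehicle mice. Slc2a3, at 10.4 to 15.7 against 14.1 to 22.4 on this scale, overlapped, and Slc2a1, at 24.8 to 48.9 against 11.4 to 14.5, lay above vehicle. The part of the changed cell content in the 6d results was not tested.

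The direct comparison of 6d with the early group does not use the vehicle mice. Slc2a3 fell further, by 0.95 ± 0.205 on the log2 scale (SE, adjusted p = 0.0337), with no overlap between the 4 early and the 3 6d mice. That call was kept without mouse 4 (adjusted p = 0.0136) and lost when 5 of the 6 other mice were left out in turn (0.05004 to 0.171), early mouse 2 being the exception, and in 1 fit over all libraries (0.111). Slc2a1 had a log2 fold change of -2.79 ± 0.774 (adjusted p = 0.0639), and without mouse 4 it fell 9.04-fold (-3.18 ± 0.213, adjusted p = 0.000200). Slc2a4 (-0.05, adjusted p = 0.974) and Hs3st5 (0.12, adjusted p = 0.940) were not called, and without mouse 4 their values were 0.69 and 1.07, also not called. In this comparison 8.73% of genes were called and 24.1% did not overlap, and 28.8% were called without mouse 4. Of the hypoxia list 6 of 12 fell (median -1.27) over all mice and 9 of 12 without mouse 4, with Ero1l (-3.34), Adm, a vasodilator peptide (-2.65), and Ankrd37 (-2.62) the largest over all mice.

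In the late group Slc2a4 and Hs3st5 were back near vehicle in 3 of 4 mice, and Slc2a3 reached the vehicle level only in mouse 1. Mouse 4 was still near the 6d level in these 3 genes. Slc2a3 was at 34.9, 22.7, 22.9 and 8.69 CPM, against 28.9 to 32.3 CPM in vehicle. Slc2a4 was at 932, 993, 932 and 343 CPM, and Hs3st5 at 10.97, 12.6, 8.46 and 2.62 CPM. Mouse 4 was the lowest in all 3 genes and overlapped the 6d mice in Slc2a4 and Hs3st5. In the same mouse the fibre markers summed to 65963 CPM, the lowest of its group, macrophage markers to 964 CPM and satellite cell and regenerating fibre markers to 1769 CPM, against 451 to 732.5 in its companions for the last list.

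Against 6d, Slc2a3 rose 2.96-fold in the late group (log2 fold change 1.57 ± 0.418, SE, adjusted p = 0.0328) with no overlap. Hs3st5 rose 3.33-fold (1.73 ± 0.523, adjusted p = 0.0451) with late mouse 4 overlapping. Slc2a4 did not pass over all mice (1.56 ± 0.494, adjusted p = 0.0514), and Slc2a1 did not (-0.30 ± 0.156, adjusted p = 0.176). Without late mouse 4, Slc2a3, Slc2a4 and Hs3st5 were all called, with values of 1.81 ± 0.197, 1.78 ± 0.368 and 2.02 ± 0.277 (adjusted p = 0.000487, 0.00491 and 0.000979). The Slc2a3 and Hs3st5 calls were lost when any 1 of the 6 other mice was left out (adjusted p 0.0704 to 0.124 and 0.0931 to 0.161). Of all genes 26.4% were called and 36.3% did not overlap, and 54.2% were called without late mouse 4. Of the 10 tested glucose transporters 3 rose, among them Slc2a12 by 1.61 ± 0.300, and 1 fell, Slc2a6, a transporter of inflammatory macrophages, by 2.44 ± 0.467.

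Against vehicle, none of the 4 genes was called in the late group. The log2 fold changes were -0.43 ± 0.377 (SE) for Slc2a3, -0.25 ± 0.384 for Slc2a4, -0.30 ± 0.449 for Hs3st5 and -0.40 ± 0.184 for Slc2a1, with adjusted p from 0.305 to 0.775. All 4 genes overlapped vehicle, where 17.0% of genes did not and 1.23% were called. Without late mouse 4 the values were -0.18 ± 0.196 for Slc2a3, -0.01 ± 0.228 for Slc2a4, -0.01 ± 0.209 for Hs3st5 and -0.34 ± 0.178 for Slc2a1, again with no call. Slc2a4 again held 91.6% ± 3.59 of the summed Slc2a RPKM (SD, n = 4).

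CFA did not give a called change in any of the 4 genes. At 1d post-CFA, Slc2a1 was at 90.7, 24.8 and 31.1 CPM, against 32.1, 30.5 and 23.3 in vehicle, so that 1 mouse stood above the rest. Hs3st5 was at 3.76, 11.6 and 6.03 CPM against 12.0, 13.8 and 8.50, and Slc2a4 at 641, 1453 and 744 CPM against 1981, 1771 and 951. Mouse 2, whose whole profile was closest to vehicle, had the highest Hs3st5 and Slc2a4 and the lowest Slc2a1 of its group. Slc2a3 was at 33.5, 29.0 and 22.3 CPM against 55.6, 25.4 and 32.5. The log2 fold changes were 0.76 ± 0.457 (SE) for Slc2a1, -0.42 ± 0.306 for Slc2a3, -0.72 ± 0.420 for Slc2a4 and -0.67 ± 0.430 for Hs3st5, each with an adjusted p of 0.924 and with overlap. Without mouse 1 the Slc2a1 value was -0.01. edgeR called 0% of 13944 genes here, with 588 at an unadjusted p under 0.05 and 6.18% not overlapping, and DESeq2 called 56. Without vehicle mouse 3, the lowest vehicle mouse in Slc2a1, Slc2a4 and Hs3st5, edgeR still called 0 genes, with 1912 at an unadjusted p under 0.05.

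At 5d post-CFA, Slc2a3 was at 20.2, 24.6 and 23.1 CPM, just under the lowest vehicle mouse of 25.4. Its log2 fold change of -0.70 ± 0.286 (SE) did not pass (adjusted p = 0.338), and 19.7% of genes did not overlap in this comparison. Hs3st5 was at 12.7, 12.2 and 9.62 CPM, within the vehicle range, with a log2 fold change of 0.06 ± 0.221 (adjusted p = 0.937). Slc2a1, at 26.3, 26.0 and 23.3 CPM, and Slc2a4, at 861, 1367 and 1168 CPM, overlapped vehicle, with log2 fold changes of -0.14 and -0.42 (adjusted p = 0.766 and 0.656). Of all genes 1.11% were called, which were 155 genes, and 2162 were called without vehicle mouse 3.

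The effect of 10U Col at 6d was compared with that of CFA at 5d in 1 model over both experiments, each against its own vehicle. Hs3st5 differed between them by 2.12 ± 0.374 on the log2 scale (SE, adjusted p = 0.00886), as it fell after Col and stood at its vehicle level after CFA. Slc2a3 differed by 1.34 ± 0.338 (adjusted p = 0.0297). The Hs3st5 call held without any 1 of the 12 mice, and the Slc2a3 call was lost without any 1 of 8 of them (adjusted p 0.0580 to 0.0917), and 1 fit over all 31 libraries called neither (0.105 for Hs3st5 and 0.148 for Slc2a3). Slc2a4 (1.42 ± 0.576, adjusted p = 0.130) and Slc2a1 (0.01 ± 0.265, adjusted p = 0.981) did not pass, where 11.3% of genes did. The days differ between the treatments, and the Col vehicle mice of this difference took part in the choice of Slc2a3 and Hs3st5. Between 1d post-CFA and the early 10U group none of the 4 differences passed (-1.90, 0.66, 1.10 and 1.53 for Slc2a1, Slc2a3, Slc2a4 and Hs3st5, adjusted p 0.738 to 0.773), where 0.0946% of genes did. These 4 values include early mouse 4 and are not given without it. Without that mouse this test called 104 of 14682 genes, against 14 of 14794 with it.

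Among the heparan sulfate 3-O-sulfotransferases, Hs3st3b1 was called lower at 6d post-Col (10U) beside Hs3st5. It fell by 2.02 ± 0.495 on the log2 scale (SE, adjusted p = 0.0247), from 3.99 ± 2.11 to 0.983 ± 0.269 CPM (SD, n = 3). Of 4 tested members 2 fell, where 27.3% of all genes were called, Hs3st1 and Hs3st3a1 were not called, and Hs3st2 and Hs3st6 had at most 15 counts in any library. Unlike Hs3st5, Hs3st3b1 rose at 5d post-CFA, from 1.42 ± 0.854 to 10.6 ± 1.86 CPM (log2 fold change 2.92 ± 0.471, adjusted p = 0.0447). Salivary gland markers summed to 85881 to 125237 CPM in those CFA mice and 23.5 to 9299 CPM in their vehicle mice, and to 0.856 to 2.57 CPM at 6d after Col, and their part in the Hs3st3b1 result was not tested. In RPC, where they reached 177700 CPM, Hs3st3b1 was at 3.64 to 16.7 CPM.

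**Figure D5:**
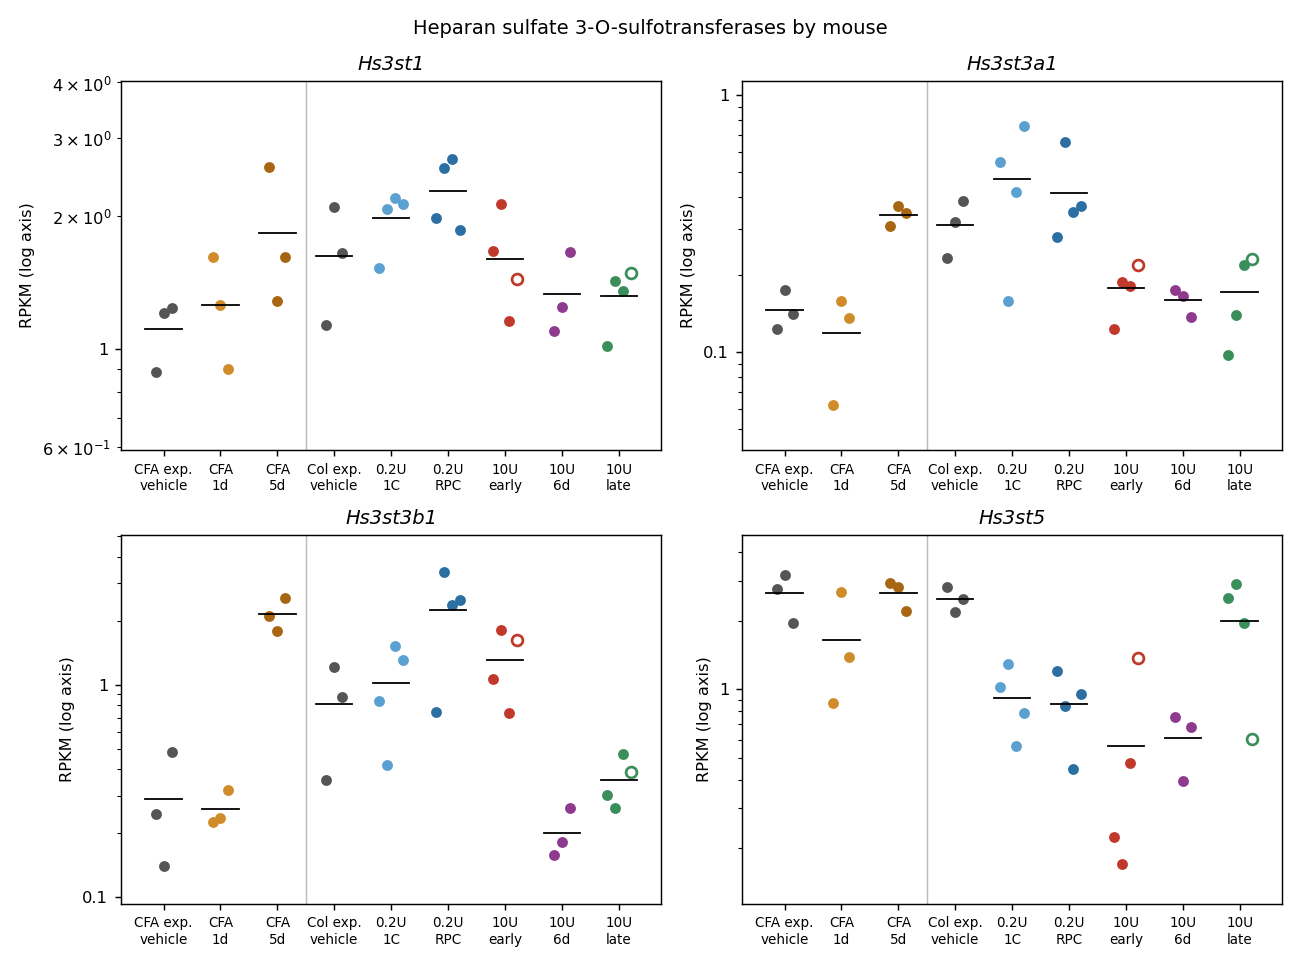
RPKM on log axes of Hs3st1, Hs3st3a1, Hs3st3b1 and Hs3st5 in each of the 31 mice by group, with a line at each group mean and open points for mouse 4 of the early and late 10U groups. Hs3st5 was at 0.171 to 0.471 RPKM in early mice 1 to 3, while Hs3st3b1 had its lowest group mean at 6d (0.200 RPKM) and Hs3st1 was not called in any comparison.

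Of 19 tested genes of heparan sulfate synthesis and modification 4 rose, 1 fell and 14 were not called at 6d against vehicle, a share near the 27.3% of all genes called, with a median of 0.14 on the log2 scale beside 0.01 for all genes. The 3 that rose furthest were Sulf2, a sulfatase that trims the chain outside the cell, by 2.42 ± 0.313 on the log2 scale, Hpse, heparanase, by 2.20 ± 0.596, and Hs6st2, a 6-O-sulfotransferase, by 1.54 ± 0.360 (SE, adjusted p 0.00406 to 0.0327). Extl3, which starts the chain, fell by 0.82 ± 0.151 (adjusted p = 0.0111). Of 12 tested proteoglycan cores 3 rose, namely Gpc2 (2.80 ± 0.458), Col18a1 (2.06 ± 0.242) and Sdc1 (1.07 ± 0.227), and none fell, again a share near that of all genes. From 6d to the late group Hs3st5 rose while Sulf2 fell by 2.16 ± 0.543, Hpse by 1.98 ± 0.556 and Gpc2 by 1.84 ± 0.476. At 5d post-CFA the core Agrn rose by 0.98 ± 0.151 (adjusted p = 0.0409), and no gene of synthesis was called.

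In the order of group means, Hs3st5 stood highest in the 5d post-CFA group (11.52 ± 1.67 CPM, SD, n = 3) and both vehicle groups (11.4 ± 2.70 and 10.8 ± 1.36), followed by the late 10U group (8.66 ± 4.37), 1d post-CFA (7.15 ± 4.06), 1C (3.97 ± 1.35), RPC (3.74 ± 1.36), 6d (2.64 ± 0.820) and the early 10U group (2.43 ± 2.42). Each group overlapped the next in this order. Slc2a3 ran from 37.8 ± 15.8 CPM in the CFA vehicle group to 7.65 ± 0.792 at 6d, and only the last step, from 1C at 12.1 ± 4.36 to 6d, was without overlap. Slc2a4 ran from 1568 ± 544 in the CFA vehicle group to 275 ± 129 at 6d and Slc2a1 from 152 ± 98.3 in the early 10U group to 17.2 ± 1.88 in the late group, with overlap at every step.

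Across all 31 libraries, the log2 CPM of Hs3st5 and Slc2a4 had a Pearson r of 0.869, Hs3st5 and Slc2a3 of 0.708 and Slc2a3 and Slc2a4 of 0.621, whereas Slc2a1 had -0.516 with Slc2a4 and -0.545 with Hs3st5. These are descriptions over libraries that share groups and depth. Among 13509 genes with a mean of at least 1 CPM, those most like Hs3st5 were Rcsd1 (0.948), Pla2g4e (0.944), Stac3, a protein of excitation-contraction coupling (0.935), Clcn1, the muscle chloride channel (0.926), and Fbxl17 (0.922). Those most like Slc2a4 were Fem1a (0.978), Ppm1l (0.978), Ppapdc3 (0.977), Cpt1b, the muscle carnitine palmitoyltransferase (0.977), and Narf (0.973). Slc2a3 had lower values, with Ndrg2 (0.873), Rilpl1 (0.870), Foxj2 (0.865), Arih2 (0.858) and Hist1h4i (0.858). Slc2a1 was most like Spg20 (0.942), Uck2 (0.940), Ppp1r15a, a gene of the integrated stress response (0.934), Dnajb9, a chaperone of the endoplasmic reticulum (0.931), and Gtf2f2 (0.928). The 95th percentile of r over all genes was 0.783 for Hs3st5, 0.847 for Slc2a4, 0.658 for Slc2a3 and 0.688 for Slc2a1.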

How the data were processed

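Whole MM of 31 mice was sequenced as stranded RNA libraries. Gene counts were made by the authors before deposit; the submitters' processing notes name bcl2fastq, TopHat2 and HTSeq and the mm9 build, and the counting strand setting is not given in the sources used here. The deposited counts were used as they were, without the summary rows that name no gene (no_feature 6.69% to 22.5% of each library). No column of another sample was present (0).

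Libraries were grouped by title and treatment label, and p-values measure the spread between the samples numbered in the titles. Each comparison was fitted on its own groups with edgeR 4.0.16 (R 4.3.3, quasi-likelihood test) after leaving out genes that reached 10 counts in fewer than 3 of its libraries, and p-values were adjusted by Benjamini-Hochberg over all genes tested, with 0.05 as the threshold. The differences between Col and CFA were interaction terms. The Wald test of DESeq2 1.42.0, edgeR with that tool's size factors, all genes unfiltered, 1 fit over all libraries, a replicate block, pooled vehicles, the study's criteria (fold above 2 and RPKM above 1 beside the adjusted p) and leaving out each mouse were the alternatives. No 2 libraries held identical values. Fits were tested on simulated data. Intervals of a log2 fold change are normal intervals from its SE.

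The members and gene lists were chosen with earlier results of these data known. The genes named are the 4 members, the called members of each list with the largest changes, and the 5 genes with the highest r with each member. The replicate numbers were checked for pairing by the correlation of deviations from group means between samples of the same number: only at 1d post-CFA were all above 0.1 (0.118, 0.247 and 0.449), and there the replicate block called 1 gene and changed no call of a member. For number 2 there, the correlation with a different number was higher, at 0.268.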

Additional observations from a re-analysis of the deposited data

Results flagged for a closer look

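Each group of 4 mice was searched for a mouse apart from the rest, and 2 of 16 sets of values (4 genes in 4 groups) held one, where chance gives about 1 in 20. Slc2a1 was at 42.4 CPM in mouse 3 of 1C, the highest of its group (gap to its neighbour over the whole range 0.891, past the Dixon limit). Slc2a4 was at 343 CPM in mouse 4 of the late 10U group, the lowest of its group (0.906).

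Effects that differed between the treatments were those of Hs3st5 and Slc2a3 in the test of the difference itself. The log2 change at 5d post-CFA was above that at 6d post-Col (10U) by 2.12 for Hs3st5 (adjusted p = 0.00886) and by 1.34 for Slc2a3 (adjusted p = 0.0297). In all 3 mice at 6d post-Col both genes lay below every vehicle mouse, and at 5d post-CFA Hs3st5 lay within the range of its vehicle mice. Marker sums, time points and experiments differ between these groups, and their part in the difference was not tested. The vehicle mice of the Col experiment took part in the choice of both genes, so the difference is not independent of it.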

How the results depend on the processing

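Of 672 recomputed member values, 573 kept their direction and their side of the threshold, 38 lost a call, 23 gained one and 37 changed sign. Early after 10U Col against vehicle, Slc2a1, Slc2a4 and Hs3st5 gained calls with DESeq2 (log2 2.64, -1.81 and -2.20), in 1 fit over all libraries (2.65, -1.83 and -2.20), with a replicate block (3.04, -2.53 and -3.25) and with pooled vehicles (2.51, -2.17 and -2.21). All genes called in these settings were 3326 of 14373, 4943 of 15526, 4500 of 14373 and 5043 of 14663, in that order. In the same settings except pooling, which does not touch these comparisons, Slc2a1 gained a call at 6d against early (-2.79, -2.79 and -3.16) and Slc2a4 in the late group against 6d (1.56, 1.54 and 1.95). All genes called in those settings were 2707 of 14513, 1810 of 15526 and 2208 of 14513 at 6d against early. In the late group against 6d they were 5375 of 14344, 3210 of 15526 and 7056 of 14344. In early against vehicle, 6d against early and late against 6d, number 4 occurs only in the early or late 10U group. A replicate block therefore gives mouse 4 a term of its own and takes it out of the contrast. Slc2a4 at 6d against vehicle lost its call with a replicate block (-1.94). Slc2a3 at 6d against early lost its call in 1 fit over all libraries (-0.94) and under the study's criteria, which ask for a larger fold (-0.95). The Slc2a3 and Hs3st5 differences between CFA and Col lost theirs in 1 fit (1.26 and 2.04). The cause of these changes was not tested beyond what each setting changes.

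Other than with 1 mouse left out, the values counted as changed in sign were not called on either side: Hs3st5 at 5d post-CFA in 1 fit (-0.017), Slc2a4 with a replicate block in the late group against vehicle (0.036) and at 6d against early (0.62), Slc2a3 in 1C against RPC with DESeq2 (-0.0011) and with its size factors (-0.0013), and the Slc2a1 difference between 5d post-CFA and 6d post-Col with DESeq2 (-0.044), its size factors (-0.043), no filter (-0.095), 1 fit (-0.074) and a replicate block (-0.0021). Slc2a4 in RPC against pooled vehicles moved to -0.79. The titles do not say that samples of the same number are paired, and the block changed no other call of a member.

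Leaving out 1 mouse at a time, log2 values ranged as follows. At 1d post-CFA, Slc2a1 ranged from -0.0053 to 1.07, and at 5d Hs3st5 from -0.085 to 0.20. Early after 10U Col, Slc2a1 ranged from 2.34 to 3.04, Slc2a3 from -1.18 to -0.95, Slc2a4 from -2.53 to -1.52 and Hs3st5 from -3.13 to -1.87. At 6d, Slc2a1 ranged from -0.29 to 0.029 and Slc2a4 from -2.08 to -1.47. At 6d against early, Slc2a1 ranged from -3.18 to -2.48, Slc2a3 from -1.07 to -0.82, Slc2a4 from -0.31 to 0.69 and Hs3st5 from -0.18 to 1.07. In the late group against 6d, Slc2a3 ranged from 1.27 to 1.81, Slc2a4 from 1.18 to 1.79 and Hs3st5 from 1.46 to 2.02. In 1C against RPC, Slc2a3 ranged from -0.27 to 0.47, Slc2a4 from -0.25 to 0.12 and Hs3st5 from -0.12 to 0.31. In the difference between 5d post-CFA and 6d post-Col, Slc2a1 ranged from -0.26 to 0.16 and Slc2a3 from 1.02 to 1.62.

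Counts of all genes called moved more. Early against vehicle, 319 genes became 3326 with DESeq2, 4943 in 1 fit, 4500 with a replicate block, 5043 with pooled vehicles and 12 to 5143 without 1 mouse, the highest without mouse 4. At 6d, 3900 became 1473 with the block, 5875 with pooled vehicles, 2195 under the study's criteria and 809 to 5835 without 1 mouse. In the late group, 174 became 902 with DESeq2, 778 in 1 fit, 43 with the block, 450 with pooled vehicles and 41 to 600 without 1 mouse. At 5d post-CFA, 155 became 899 with DESeq2, 60 with its size factors, 38 in 1 fit, 0 with pooled vehicles and 0 to 2162 without 1 mouse, the highest without CFA vehicle mouse 3. At 6d against early, 1267 became 2707 with DESeq2, 2208 with the block, 759 under the study's criteria and 126 to 4105 without 1 mouse, the highest without early mouse 4. In the late group against 6d, 3785 became 7056 with the block, 1389 under the study's criteria and 234 to 7687 without 1 mouse, the highest without late mouse 4. From 0, 1C against vehicle went to 137 in 1 fit, 287 with pooled vehicles and 202 without 1C mouse 2, RPC against vehicle to 17 with pooled vehicles, 1C against RPC to 91 in 1 fit and 147 without 1C mouse 2, and 1d post-CFA to 19 without mouse 2 of that group. The share of Slc2a3 among the transporters in vehicle was 2.98% without length and 1.94% with the longest transcript. Hs3st5 rested on 13 to 152 reads in the early mice, which limits its precision there.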
